A study of Mus musculus with 12 samples.

Results

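Chromatin accessibility was compared between induced regulatory T cells (iTreg) cultured with difluoromethylornithine (DFMO) and iTreg cells cultured without it, in 3 ATAC-seq libraries per group. These 6 libraries were taken by their labels from the 12 of the study. The other 6 are non-pathogenic Th17 cells (Th17n), raised with IL-6 besides TGF-beta1, with and without DFMO. All animals were C57BL/6 mice with no genetic change named, numbered 1 to 3 in each group, and their age is not given in the sources used here. Naive CD4+CD44-CD62L+CD25- T cells from spleen were sorted and stimulated in culture with plate-bound antibodies to CD3 and CD28, each at 1 µg/ml. The iTreg cultures received 2 ng/ml TGF-beta1 for 68 hours, with 100 µM DFMO or with vehicle. After culture the cells were sorted for viability and frozen before tagmentation; the labels name no sort for Foxp3, so each library is the average of a culture. A library is called by its treatment and animal number, as in vehicle 3. Of 48443 peaks in the count table, 43726 had enough counts to be tested.

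DFMO irreversibly inhibits ornithine decarboxylase, which makes putrescine from ornithine and so feeds the polyamines spermidine and spermine. Spermidine is also the donor for hypusine, a modified lysine that the translation factor eIF5A needs for activity. In CD4+ T cells, TGF-beta and antigen receptor signals induce Foxp3 and the regulatory T cell (Treg) programme, and polyamine supply is known to affect which helper cell programme is kept. ATAC-seq counts the cuts that the transposase Tn5 makes in open chromatin, so a higher count at a peak means more accessible DNA.

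DFMO changed accessibility at 3742 of 43726 peaks (8.56%), with 1677 gains (3.84%) and 2065 losses (4.72%). Regions that closed included some at genes of the hypoxia response, of fatty acid desaturation and of T cell activation and effector programmes. Loss shares were also raised on lists of naive and memory genes (8.68%), brakes on activation (8.5%), homing (11.9%) and actin genes (10.1%). The hypoxia list had a raised share of gains as well (6.74%). The shares over all tested peaks, 3.84% higher and 4.72% lower, are the background for every list and class below. Regions at tRNA genes were among those that opened. Gains went from a median of 11.5 to 25.6 CPM (counts scaled to 1000000 per library, by TMM-adjusted totals) and losses from 23.8 to 10.7 CPM. Of the gains, 955 were at least 2-fold and 204 at least 4-fold, against 1232 and 226 of the losses. Changes are edgeR quasi-likelihood estimates on the log2 scale, DFMO over vehicle, with a standard error (SE). A peak was called when its Benjamini-Hochberg adjusted p, taken over all tested peaks, was below 0.05. All adjusted p-values given here are from that test unless another is named. A promoter peak lies within 1 kb of a listed transcription start or, where none is listed, of either end of the gene. Fewer cells with an open region and less open chromatin per cell cannot be told apart in such bulk libraries.

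**Figure D1:**
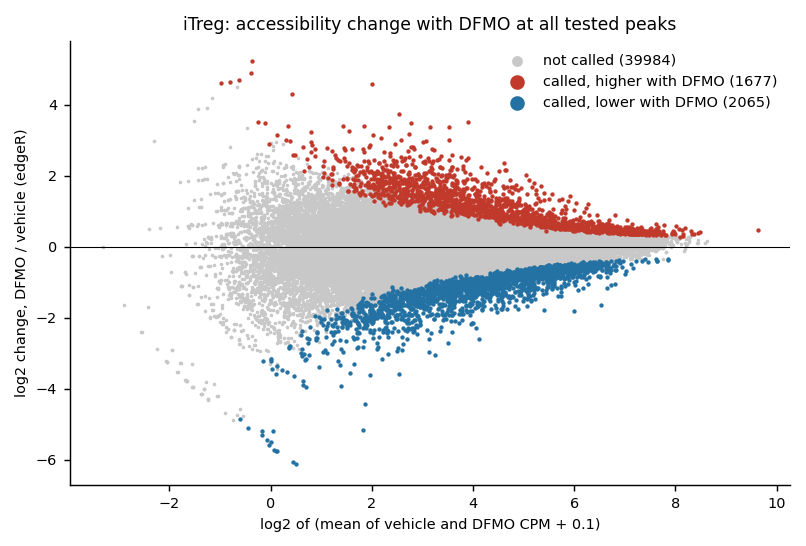
Log2 change with DFMO (vertical axis) against the log2 mean accessibility in CPM (horizontal axis) for the 43726 tested peaks in iTreg cells, with 1677 gains in red, 2065 losses in blue and other peaks in grey. Of the gains 955 are at or above 1 (2-fold), and of the losses 1232 are at or below -1.

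Total counts were 1955327, 4652271 and 4946527 in the vehicle libraries of animals 1, 2 and 3, and 1703720, 2107652 and 3412225 in the DFMO libraries. The first principal component of the 6 libraries, with 35.8% of the variance, placed the vehicle libraries at 40.6 to 69.1 and the DFMO libraries at -101.7 to -15.05. The count of calls depended on single libraries. Gains numbered 774 without vehicle 2, 649 without vehicle 3 and 621 without DFMO 3. Losses numbered 1089, 778 and 795 in the same order, and 1272 without DFMO 1. No called peak that was tested again changed sign with any of these libraries left out. The refits share the other libraries and the peaks were picked for a change, so a kept sign says little about stability. Markers of other cell types were examined through their peaks. Cd79a, Ms4a1, Cd8a and Ncr1 had no tested peak, and summed levels of myeloid markers were 71.5 to 91.7 CPM with vehicle and 82.5 to 94.9 CPM with DFMO. The summed level at Cd8b1, Klrb1c and Prf1 was 98.7 to 121 CPM with vehicle and 139 to 145 CPM with DFMO, with no call by edgeR among their 8 peaks, nor any among the 28 peaks of the wider list of CD8 and NK cell genes, where 5 had an unadjusted p below 0.05 and DESeq2 called 1. The B cell markers Pax5 and Ebf1 had 21 peaks with summed levels of 122 to 171 CPM with vehicle and 114 to 132 CPM with DFMO. On the wider B cell list 2 of 25 peaks rose, inside Bank1 (1.47, adjusted p = 0.015) and Blnk (0.98, adjusted p = 0.012), and 2 fell, both inside Ebf1 (-1.64 at each). No gain or loss on that list was left without vehicle 2 or DFMO 3, 1 gain and no loss were left without vehicle 3, 1 loss without DFMO 1, and 5 fell without vehicle 1. The part of other cells in the results was not tested.

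Promoter windows that lie under peaks central to the results are printed here from RefSeq (GRCm38.p6, the mm10 assembly), each running from 250 bases before to 50 bases after the transcription start in the direction of the gene. In the first 3, from genes of the hypoxia response whose promoters closed, capitals mark ACGTG, the core of the element bound by hypoxia-inducible factors (searched on both strands). The Bnip3 capitals extend to CACGTG, an E-box, in which the core occurs on both strands. In Fads2, the promoter with the smallest adjusted p among losses, capitals mark the GC box GGGCGG (both strands). In Xpo1, a promoter that opened, they mark the NF-Y motif CCAAT (both strands).
Egln3, chr12:54203825-54204124, minus strand: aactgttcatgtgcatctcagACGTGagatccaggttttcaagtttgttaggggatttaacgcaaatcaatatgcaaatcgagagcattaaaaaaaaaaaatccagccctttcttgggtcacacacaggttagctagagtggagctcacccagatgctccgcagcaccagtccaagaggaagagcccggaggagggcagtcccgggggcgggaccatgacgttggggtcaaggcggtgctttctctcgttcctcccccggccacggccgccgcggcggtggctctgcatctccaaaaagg
Slc16a3, chr11:120948817-120949116, plus strand: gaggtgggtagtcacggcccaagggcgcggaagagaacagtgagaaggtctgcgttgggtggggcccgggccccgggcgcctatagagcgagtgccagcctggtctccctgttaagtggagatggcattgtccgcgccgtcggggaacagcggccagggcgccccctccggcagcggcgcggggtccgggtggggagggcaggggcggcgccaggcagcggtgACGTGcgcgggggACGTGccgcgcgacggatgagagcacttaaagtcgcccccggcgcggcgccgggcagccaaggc
Bnip3, chr7:138909457-138909756, minus strand: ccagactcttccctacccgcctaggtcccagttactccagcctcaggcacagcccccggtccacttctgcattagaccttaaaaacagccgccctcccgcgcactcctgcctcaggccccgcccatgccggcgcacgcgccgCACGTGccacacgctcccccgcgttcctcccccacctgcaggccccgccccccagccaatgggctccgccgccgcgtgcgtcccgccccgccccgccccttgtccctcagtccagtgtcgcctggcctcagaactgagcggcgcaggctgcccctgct
Fads2, chr19:10101454-10101753, minus strand: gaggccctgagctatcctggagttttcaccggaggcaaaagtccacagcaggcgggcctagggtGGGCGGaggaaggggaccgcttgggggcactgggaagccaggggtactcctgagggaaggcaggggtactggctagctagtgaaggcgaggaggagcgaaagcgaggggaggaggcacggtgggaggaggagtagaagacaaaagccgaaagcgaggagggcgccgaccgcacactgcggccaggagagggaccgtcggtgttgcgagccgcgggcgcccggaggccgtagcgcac
Xpo1, chr11:23255791-23256090, plus strand: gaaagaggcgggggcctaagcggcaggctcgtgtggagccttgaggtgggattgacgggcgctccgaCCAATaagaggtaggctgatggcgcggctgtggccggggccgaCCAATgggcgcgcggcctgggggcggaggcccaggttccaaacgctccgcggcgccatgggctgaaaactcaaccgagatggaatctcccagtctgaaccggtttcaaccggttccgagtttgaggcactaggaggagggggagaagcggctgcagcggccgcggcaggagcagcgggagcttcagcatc

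The same motifs were counted in all promoter windows. Among those overlapping a tested promoter peak, ACGTG occurred in 26.5% of all 8764, in 26.5% of 347 windows that opened and in 23.4% of 286 that closed. The GC box occurred in 70.0%, 70.3% and 80.8% in the same order, and the GC content had medians of 62.0%, 60.3% and 65.7%. CCAAT was present in 37.7% of all windows, 49.0% of those that opened and 40.2% of those that closed. The ETS motif CCGGAAG was present in 18.7%, 20.2% and 11.2%, and the E-box CACGTG in 10.7%, 11.2% and 4.90%. The GC box and CCAAT can occur in the same window, CACGTG always contains ACGTG, and a match describes these letters within the window only.

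Mature miRNAs whose genes lie within 1 kb of a called peak are shown from RefSeq with the seed (bases 2 to 8) in capitals. They are the product of the peak with the smallest adjusted p near any miRNA gene, a clustered pair with a common seed, and the product of a peak that opened.
miR-210-3p: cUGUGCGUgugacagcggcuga
miR-132-3p: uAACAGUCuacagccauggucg
miR-212-3p: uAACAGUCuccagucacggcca
miR-484: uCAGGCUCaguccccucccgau

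A peak beside Mir210 had the smallest adjusted p among peaks near miRNA genes. This miRNA is well known to be induced by hypoxia-inducible factors. The peak (mm10, chromosome 7, 141221547 to 141222431, between genes, nearest protein-coding gene Rassf7) had 133, 143 and 144 CPM in the vehicle libraries of animals 1, 2 and 3 and 41.6, 67.2 and 28.6 CPM with DFMO. All vehicle libraries were well above all DFMO libraries. The change was -1.65 ± 0.17 (SE, adjusted p = 1.1e-08), and it was larger than that in Th17n cells (-0.63; adjusted p = 0.019 for the difference, edgeR interaction test). A peak over Mir132 and Mir212, which have the same seed AACAGUC and are induced by CREB in many cells, fell from a mean of 67.0 to 37.8 CPM (-0.83 ± 0.16, adjusted p = 0.00075). At Mir361, inside Chm on chromosome X, a peak fell from 11.3 ± 1.55 to 2.88 ± 1.68 CPM (SD, n = 3; -2.07 ± 0.39, adjusted p = 0.00038). The peak that Mir484 shares with the start of Marf1 rose (0.94 ± 0.17, adjusted p = 0.00025). Over all miRNA genes, 8 of 175 peaks rose and 10 fell, shares of 4.57% and 5.71% beside 3.84% and 4.72% of all peaks.

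The promoter with the smallest adjusted p among losses belonged to Fads2, a fatty acid desaturase of polyunsaturated fat synthesis. Its promoter peak (mm10, chromosome 19, 10100699 to 10102206) had 107, 86.2 and 104 CPM with vehicle and 28.9, 39.0 and 18.5 CPM with DFMO. The groups were far apart, with a change of -1.82 ± 0.18 (adjusted p = 6.9e-09). In Th17n cells the change was -0.15 and was not called, and the difference between the lineages passed the interaction test (adjusted p = 0.00012). The promoter peak of Scd2, a stearoyl-CoA desaturase with no listed start, had 100, 92.0 and 102 CPM with vehicle and 46.4, 60.3 and 50.2 CPM with DFMO. It fell by 0.90 ± 0.16 on the log2 scale (adjusted p = 0.00023), and here too the effect differed from Th17n, where the estimate was 0.25 (adjusted p = 0.0048).

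Over the list of sterol and fatty acid genes, 3 of 113 peaks rose and 14 fell (12.4%, against 4.72% of all tested peaks), with a median change of -0.05. Without DFMO 3, 8 fell, and the 3 gains numbered 6 without vehicle 1, 1 without vehicle 2 and 0 without vehicle 3. Of all promoter peaks 3.49% fell and 3.63% rose. At promoters on this list 6 of 36 peaks fell. Named here after their values were seen, they included Fads2, Scd1 (-1.02), Scd2, Cpt1a (-0.74) and Elovl1 (-0.50), genes of desaturation, fatty acid import into mitochondria and chain elongation. The promoter losses numbered 3 without DFMO 3 and 4 without vehicle 2, vehicle 3 or DFMO 1. The promoter of Idi1, an enzyme of the mevalonate pathway, rose (0.42, adjusted p = 0.026). Inside the gene of acetyl-CoA carboxylase, Acaca, a peak fell with almost no spread among vehicle libraries: 170, 172 and 172 CPM became 107, 129 and 105 CPM (-0.59 ± 0.12, adjusted p = 0.00079). A peak within the cholesterol exporter gene Abcg1 fell (-1.36 ± 0.27, adjusted p = 0.00089), and 1 between genes on the side of Abcg1 rose (0.75, adjusted p = 0.047).

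Genes of the hypoxia response and of glycolysis were marked by losses at their promoters. Of 178 peaks on this list, 24 fell (13.5%, against 4.72% of all peaks) and 12 rose (6.74%, against 3.84%), with a median change of -0.17. Of all promoter peaks 3.49% fell and 3.63% rose. On the list, 11 of 48 promoter peaks fell and 1 rose. The promoter losses numbered 7 without DFMO 3 and between 9 and 13 without any other single iTreg library, and the 24 losses numbered 12 without DFMO 3. The gains numbered 4 without vehicle 2, 6 without vehicle 3 and 5 without DFMO 3. Summed over the 48 promoter peaks, vehicle libraries had 3522, 3354 and 3281 CPM and DFMO libraries had 2922, 3089 and 3035 CPM, which did not overlap. Of all single tested peaks, 12.2% had every DFMO value below every vehicle value and 11.4% every one above.

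Slc16a3 encodes a proton-linked exporter of lactate. Its promoter peak (chromosome 11, 120948552 to 120949360) had 34.7, 39.8 and 41.1 CPM with vehicle and 18.7, 9.89 and 12 CPM with DFMO, a change of -1.55 ± 0.25 (adjusted p = 3.8e-05). The change in Th17n was -0.09, and the difference between lineages was called (adjusted p = 0.018). The window printed above holds ACGTG at 2 places, 27 and 14 bases before the start, both within the peak.

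Egln3, a prolyl hydroxylase that marks hypoxia-inducible factor for destruction and is itself induced by it, had 44.5, 62.4 and 77.1 CPM at its promoter with vehicle and 26.5, 29.7 and 21.9 CPM with DFMO. The promoter (chromosome 12, 54203249 to 54204330) fell by 1.29 ± 0.20 on the log2 scale (adjusted p = 2.1e-05). Bnip3, a receptor for the removal of mitochondria, showed tight groups at its promoter (chromosome 7, 138909175 to 138910148): 67.9, 56.9 and 58.6 CPM with vehicle and 28.3, 25.7 and 30.2 CPM with DFMO (-1.10 ± 0.18, adjusted p = 8.4e-05). The change in Th17n was of like size there (-0.90; adjusted p = 0.79 for the difference).

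The other 8 promoter losses on this list, named after their values were seen, were at Gapdh (-1.52), Arnt (-0.82), Slc2a1 (-0.65), Pfkfb3 (-0.65), Ndrg1 (-0.63), Epas1 (-0.59), Hk2 (-0.55) and Ankrd37 (-0.50). They include the glucose transporter Slc2a1, the glycolytic regulator Pfkfb3, hexokinase Hk2 and the hypoxia-inducible factor subunits Arnt and Epas1. At Arnt the vehicle libraries had 67.3, 71.8 and 70.9 CPM and the DFMO libraries 39.1, 36.1 and 43.4 CPM. The promoter of Kdm3a, a histone demethylase, rose (117 to 167 CPM, 0.52, adjusted p = 0.0055). RefSeq windows were found under 8 of the 11 promoter losses, and 7 of the 8 held ACGTG, as did 25 of the 39 windows found for the whole list. At Hif1a, the oxygen-sensitive subunit itself, 3 peaks between genes fell, the strongest from 11.4 ± 4.5 to 2.19 ± 1.11 CPM (-2.29 ± 0.41, adjusted p = 0.00019).

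**Figure D2:**
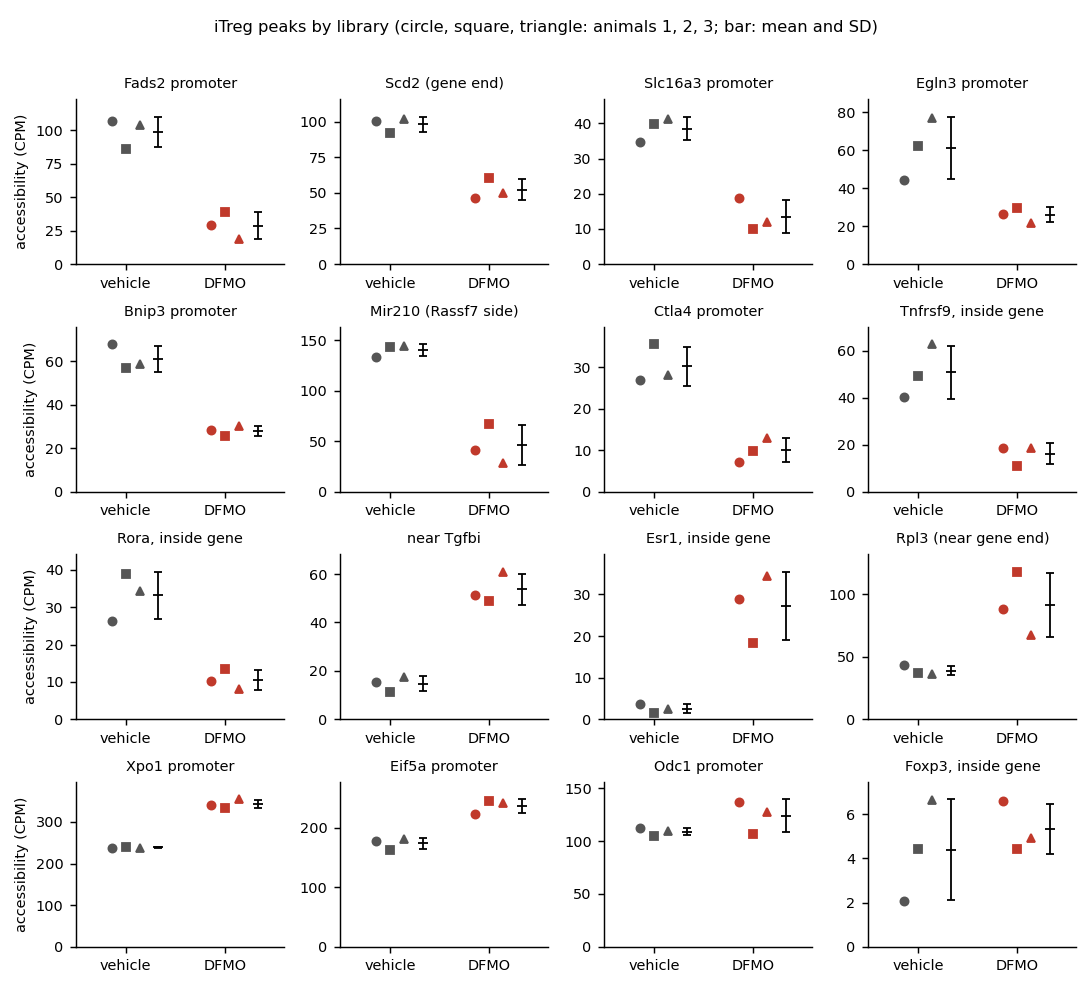
Accessibility in CPM (vertical axes, each from 0) of 16 peaks in the 3 vehicle (grey) and 3 DFMO (red) iTreg libraries, with circle, square and triangle for animals 1, 2 and 3 and bars for the mean and SD. The vehicle and DFMO libraries do not overlap in the Fads2, Slc16a3, Egln3, Bnip3, Mir210, Ctla4 and Tgfbi panels, while they do in the Odc1 and Foxp3 panels. Of all tested peaks, 12.2% had every DFMO value below every vehicle value and 11.4% every one above.

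Other promoters with small adjusted p also closed. Nos2, inducible nitric oxide synthase, uses arginine, the precursor of ornithine; its promoter peak, at an end of the gene since no start is listed (chromosome 11, 78920461 to 78920987), had 49.2, 39.8 and 40.5 CPM with vehicle and 11.4, 19.3 and 10.5 CPM with DFMO (-1.66 ± 0.25, adjusted p = 2.1e-05). The effect was larger than in Th17n (-0.16; adjusted p = 0.021 for the difference). Pnpla3, a lipid droplet acyltransferase and lipase, fell from 77.4 ± 7.73 to 29.6 ± 5.64 CPM (-1.39 ± 0.19, adjusted p = 3.7e-06). Zbtb7b, which encodes ThPOK, the transcription factor that keeps the CD4 lineage, lost accessibility within 1 kb of its start (99.6 ± 5.84 to 44.6 ± 12.7 CPM, -1.16 ± 0.16, adjusted p = 3.7e-06). The promoters of Triobp, an actin-binding protein, and of Tspan17, a tetraspanin, fell by 2.15 ± 0.31 and 1.06 ± 0.17 on the log2 scale.

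Other promoter peaks opened. The largest gain among the 8 with the smallest p was within 1 kb of an end of Rpl3, a ribosomal protein gene with no listed start (chromosome 15, 80075748 to 80077225), with 43.5, 37.3 and 36.2 CPM with vehicle and 88.5, 118 and 67.1 CPM with DFMO (1.23 ± 0.17, adjusted p = 3.7e-06). Xpo1, the main exportin of nuclear proteins and of some RNA, had 238, 240 and 239 CPM and 342, 334 and 354 CPM (0.52 ± 0.09, adjusted p = 0.00024). Its libraries differed little within each group. Tasor2, a protein related to a silencing complex subunit, rose from 76.9 ± 9.69 to 128 ± 4.90 CPM (0.75 ± 0.13), and in Th17n the estimate was 0.04 (adjusted p = 0.038 for the difference). Marf1, Cnot3 (a subunit of the deadenylase complex), Pja2 (a ubiquitin ligase), Kbtbd3 and Zfp78 rose by 0.94, 0.60, 0.55, 0.62 and 0.65. Of these 8 promoter peaks, Rpl3 (1.65), Marf1 (0.72), Cnot3 (0.715), Kbtbd3 (0.39) and Xpo1 (0.31) were also called higher in Th17n. Tasor2, Pja2 and Zfp78 were not called there.

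The share of losses was higher inside genes than at promoters, a difference that was not tested. Of 17525 peaks inside genes, 5.69% fell and 3.63% rose, and of 12079 promoter peaks 3.49% fell and 3.63% rose. Among the 10932 peaks with the highest mean CPM, 13.6% of 3663 peaks outside promoters fell and 6.63% rose, against 3.59% and 5.24% of 7269 promoter peaks. Peaks with no protein-coding gene within 100 kb went the other way: 127 of 1971 rose (6.44%) and 76 fell (3.86%). These gains numbered 67, 69 and 61 without vehicle 2, vehicle 3 and DFMO 3, and these losses 41, 26, 39 and 22 without vehicle 2, vehicle 3, DFMO 1 and DFMO 3 and 119 without DFMO 2. The 438 promoter gains and 421 promoter losses were 194 and 219 without vehicle 2, 84 and 159 without vehicle 3, 269 and 253 without DFMO 1, and 97 and 166 without DFMO 3. With loess offsets promoters had 361 gains and 403 losses. The share of counts at promoters was 58.6% ± 1.27 with vehicle and 60.1% ± 1.06 with DFMO (SD, n = 3; exact permutation test, two-sided p = 0.2, where 0.1 is the smallest possible).

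Peaks at genes for tRNAs, snRNAs and snoRNAs were counted next. Of 168 peaks within 1 kb of a tRNA gene, 31 rose (18.5%) and 1 fell, with a median change of 0.32 against -0.009 over all peaks, and 134 of 168 estimates were above 0. The gains numbered 13 without vehicle 3, 16 without DFMO 3, 23 without vehicle 2, and 25 to 30 without any other iTreg library. Summed over the 168 peaks, vehicle libraries had 7668, 7799 and 7472 CPM and DFMO libraries had 8591, 9974 and 9236 CPM. Every DFMO library was above every vehicle library, as was the case at 11.4% of all tested peaks taken singly. Of the 168 peaks, 133 lay outside promoters of protein-coding genes. In Th17n cells 27 of the 31 gains were called in the same direction, and the difference between lineages was called at 6 of the 168 peaks, with 91 of the 168 called higher in Th17n. Genes for tRNAs are near-identical copies, and how reads that map to several copies were treated is not given in the sources used here, so a gain cannot be placed on a single copy with certainty.

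A large tRNA cluster lies on mouse chromosome 13, which held 13 of the 31 gains and 52 of the 168 tested tRNA peaks. The peak over n-TYgta4 and n-TYgta5, tyrosine tRNA genes (23426864 to 23427151, nearest gene Abt1), had 10.4, 11.6 and 5.61 CPM with vehicle and 27.1, 48.0 and 26.5 CPM with DFMO. Its change of 1.90 ± 0.30 was the largest of the tRNA gains (adjusted p = 3e-05). On chromosome 11, the peak at n-TGacc1, a glycine tRNA gene (48823724 to 48824061), had 15, 12.9 and 8.31 CPM and then 35.5, 37.6 and 37.3 CPM (1.65 ± 0.28, adjusted p = 9.3e-05). All 3 gains near Osbp lay at tRNA genes, as did the peak near Vmn1r223 (9.83 ± 3.12 to 29.9 ± 7.95 CPM, 1.65 ± 0.30, adjusted p = 0.00032). The single loss, at n-TRtct4 inside the gene model of Hes7, went from 43.7 ± 3.03 to 17.5 ± 7.12 CPM (-1.35 ± 0.23, adjusted p = 0.00015).

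Genes for snRNAs encode the RNA of the spliceosome and related particles. At these genes 10 of 76 peaks rose (13.2%, against 3.84% of all peaks) and 3 fell (3.95%, against 4.72%). The gains numbered 3 without vehicle 3, 3 without DFMO 2, 5 without vehicle 2 and 5 without DFMO 3. Losses numbered 3 without DFMO 2, as many as the gains, 2 without vehicle 2 or DFMO 1, 1 without vehicle 3 and 0 without DFMO 3. The peak at Rnu5g rose from 111 ± 12.8 to 173 ± 51.1 CPM (0.65 ± 0.14, adjusted p = 0.0016), with a DFMO library of animal 2 at 232 CPM and the other DFMO libraries at 145 and 142 CPM. Without that library the adjusted p at this peak, nearest to Parp16, was 0.061. Among snoRNA genes, 12 of 102 peaks rose (11.8%) and 3 fell, with 4 gains without vehicle 3, 6 without vehicle 2 and 7 without DFMO 3, and with 6 losses without vehicle 1, 5 without DFMO 2 and 2 or 3 without any other. The largest snoRNA-related change was a loss inside Mia2, from 16.6, 15.8 and 18.5 CPM to 0.602, 2.97 and 2.15 CPM (-3.06 ± 0.44, adjusted p = 7.5e-06). Among promoters of the tRNA-charging enzymes, Tars (0.60, adjusted p = 0.0074) and Lars (0.44, adjusted p = 0.034) rose, and edgeR called 0 of the 31 peaks of that list lower. Neither call held without vehicle 3 (adjusted p = 0.09 and 0.27), and Lars was also lost without vehicle 2, DFMO 1 and DFMO 3 (0.052, 0.082 and 0.29). Of the 31 peaks 3 had a negative change with an unadjusted p below 0.05, and DESeq2 called none lower.

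**Figure D3:**
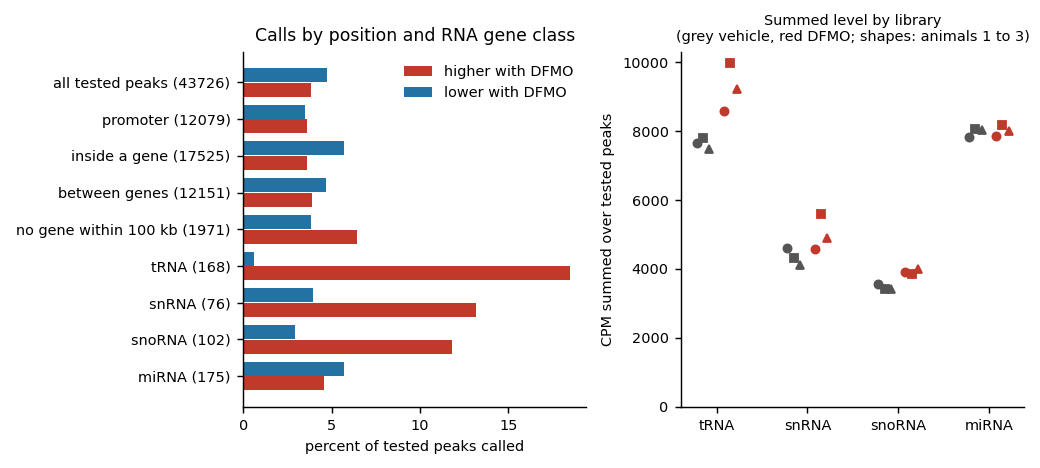
Left, percent of tested peaks called higher (red) or lower (blue) with DFMO in iTreg cells, by position and by class of RNA gene within 1 kb, with the number of tested peaks in brackets. Right, CPM summed over the tested peaks of each RNA class in the 3 vehicle (grey) and 3 DFMO (red) libraries; the tRNA sums are 7472 to 7799 CPM with vehicle and 8591 to 9974 CPM with DFMO.

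Of 86 peaks on the list of polyamine and hypusine genes, 3 rose (3.49%) and 2 fell (2.33%), with a median of 0.00; these shares lie near the 3.84% and 4.72% of all peaks. Without DFMO 2 the losses numbered 6, and without DFMO 3 there was 1 gain. The promoter of Odc1, the target of DFMO, had 112, 105 and 110 CPM with vehicle and 137, 107 and 128 CPM with DFMO; the groups overlapped and the change of 0.19 ± 0.12 was not called (adjusted p = 0.39). The promoter of Eif5a, whose protein carries hypusine, had 178, 162 and 180 CPM and 223, 244 and 241 CPM. It rose by 0.45 ± 0.10 (adjusted p = 0.0045; 0.061 with loess normalization). Near Amd1, whose enzyme provides the aminopropyl groups for spermidine, a peak fell (13.5, 26.4 and 33.2 CPM to 1.81, 8.4 and 8.62 CPM), and another between genes, nearest to Azin1, an inhibitor of antizyme, fell from 74.1 ± 10.3 to 46.1 ± 6.64 CPM.

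Foxp3, the transcription factor that defines regulatory T cells, had 1 tested peak, inside the gene on chromosome X. It was low in every library, at 2.07, 4.44 and 6.65 CPM with vehicle and 6.62, 4.45 and 4.93 CPM with DFMO. The groups overlapped, and the change of 0.15 ± 0.44 was not called (adjusted p = 0.89); without vehicle 1 the estimate was -0.09. At the promoter of Il2ra, the IL-2 receptor alpha chain, the vehicle libraries had 87.0, 64.7 and 64.4 CPM and the DFMO libraries 77.1, 59.3 and 71.8 CPM (-0.03 ± 0.15, adjusted p = 0.93). Of the other 14 peaks nearest to Il2ra, 3 fell (-0.54, -0.79 and -1.05, adjusted p = 0.04, 0.017 and 0.021). A peak between genes rose from 30.9 ± 7.1 to 58.1 ± 19.8 CPM (0.93 ± 0.21, adjusted p = 0.0036), with an adjusted p of 0.067 without vehicle 3. At the promoter of Ikzf2, which encodes Helios, the change was 0.11 ± 0.21 (adjusted p = 0.82).

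Peaks at other Treg genes were called in both directions, more often lower. Over the Treg list 26 of 220 peaks fell (11.8%, against 4.72% of all peaks) and 6 rose (2.73%, against 3.84%). The median was -0.15, the losses were at 13 of 30 genes and the gains at 6. Losses numbered 15 without vehicle 3, 13 without DFMO 3, 18 without vehicle 2 and 20 without DFMO 1, and the gains 1 or 2 without any of these 4. Ctla4 encodes an inhibitory receptor that removes costimulatory ligands from antigen-presenting cells. Its promoter (chromosome 1, 60908805 to 60909288) had 26.9, 35.5 and 28.1 CPM with vehicle and 7.23, 9.89 and 12.9 CPM with DFMO (-1.54 ± 0.27, adjusted p = 0.00016), and 5 of its 16 peaks fell. Tnfrsf9, the costimulatory receptor CD137, had a peak inside the gene with 40.4, 49.1 and 62.8 CPM and 18.7, 10.9 and 18.8 CPM (-1.66 ± 0.24, adjusted p = 1.1e-05). A peak beside Tnfrsf18, which encodes GITR, fell from 94.5 ± 15 to 40.0 ± 12.1 CPM (-1.23 ± 0.17, adjusted p = 3.7e-06). The peak nearest the transcription start of Tnfrsf18 changed by -0.34 ± 0.12 (adjusted p = 0.056). In Th17n the former Tnfrsf18 peak (-1.92, adjusted p = 1.5e-09) and the Tnfrsf9 peak (-1.11, adjusted p = 0.0015) were called lower too. The Ctla4 promoter was not called there (-0.57, adjusted p = 0.14), and none of these differences between lineages was called. Inside Nrp1, neuropilin, a peak fell from 34.5 ± 11.8 to 10.1 ± 1.78 CPM (-1.83 ± 0.26), more than in Th17n (-0.48; adjusted p = 0.032 for the difference).

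Genes of TGF-beta signalling, the cytokine given to these cultures, moved both ways: 9 of 168 peaks rose (5.36%) and 12 fell (7.14%). Gains numbered 4 without vehicle 2, 3 without vehicle 3 and 2 without DFMO 3, and losses 3 to 5 without vehicle 2, vehicle 3, DFMO 1 or DFMO 3. Tgfbi, a matrix protein named for its induction by TGF-beta, lies near a peak (chromosome 13, 56601202 to 56601973) that had 15.5, 11.1 and 17.2 CPM with vehicle and 51.2, 48.9 and 61.0 CPM with DFMO. The change was 1.90 ± 0.20 (adjusted p = 7.9e-09). In Th17n this peak rose as well (1.11, adjusted p = 3e-05), and the difference between lineages was not called. A peak inside Ski, a repressor of SMAD proteins, rose (68.6 ± 16.1 to 112 ± 22.8 CPM, 0.73 ± 0.16), and peaks near the integrin gene Itgav (-1.10 ± 0.21) and inside Smad3 (-0.65 ± 0.14) fell. The Smad3 effect differed from that in Th17n (0.17, adjusted p = 0.022 for the difference), and after thinning to the shallowest library the Smad3 loss had an adjusted p of 0.2. Another peak inside Smad3 rose from 7.73 ± 1.32 to 16.2 ± 4.91 CPM (1.04, adjusted p = 0.022).

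Among genes of T cell receptor, AP-1 and NFAT signalling, 26 of 282 peaks fell (9.22%) and 8 rose (2.84%), with a median of -0.23. Losses numbered 12 without vehicle 2, 10 without vehicle 3, 14 without DFMO 1 and 10 without DFMO 3, and gains 2 to 5 without vehicle 1, vehicle 2, vehicle 3, DFMO 2 or DFMO 3. Inside the costimulatory receptor gene Cd28 a peak fell from 13.5, 15.6 and 16.4 CPM to 3.01, 2.97 and 0.616 CPM (-2.95 ± 0.45, adjusted p = 2.3e-05). A peak near Fosl2, an AP-1 subunit, fell from 43.4 ± 17.0 to 16.9 ± 7.10 CPM (-1.37 ± 0.24). Its change in Th17n was -1.07 (adjusted p = 0.00053). Rcan1, a feedback inhibitor of calcineurin, gained a peak inside the gene, from 2.59, 9.33 and 8.52 CPM to 17.5, 40.5 and 22.8 CPM (1.85 ± 0.33, adjusted p = 0.00023). In Th17n the estimate at that peak was 0.05 (adjusted p = 0.035 for the difference).

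Brakes on activation followed a like count, with 17 losses (8.5%) and 4 gains (2.0%) among 200 peaks. Losses numbered 5 without vehicle 3, 5 without DFMO 3 and 10 without vehicle 2, and each of these left 2 gains. Cblb, a ubiquitin ligase that restrains T cells in the absence of costimulation, had 4 losses, the strongest from 74.1, 66.2 and 79.4 CPM to 39.1, 27.2 and 32.0 CPM (-1.17 ± 0.17, adjusted p = 1.2e-05). That peak was called lower in Th17n too (-0.725, adjusted p = 0.0054). Near Cd5, a negative regulator of receptor signalling, a peak fell from 48.3 ± 3 to 19.5 ± 3.57 CPM (-1.29 ± 0.20), and the estimate in Th17n was 0.04 (adjusted p = 0.0047 for the difference). On the IL-2 and Stat5 list 15 of 141 peaks fell (10.6%) and 3 rose (2.13%). Losses there numbered 3 without vehicle 3, 4 without DFMO 3 and 8 without vehicle 2 or DFMO 1, and there was 1 gain without vehicle 3 or DFMO 3. An example is a peak inside Il2rb, the receptor's beta chain (64.8 ± 11.7 to 36.0 ± 6.55 CPM, -0.84 ± 0.16, adjusted p = 0.0005).

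Lists of effector lineages were counted in the same way. On the Th17 list 21 of 184 peaks fell (11.4%, against 4.72% of all peaks) and 3 rose (1.63%, against 3.84%), with a median of -0.30. Losses numbered 10 without vehicle 3, 8 without DFMO 3, 14 without vehicle 2 or DFMO 1, and 32 without DFMO 2; gains numbered 1 without vehicle 2 and 0 without DFMO 1. Inside Rora, a nuclear receptor of Th17 cells, 4 peaks fell and 2 rose; the strongest loss went from 26.4, 38.9 and 34.3 CPM to 10.2, 13.3 and 8.01 CPM (-1.71 ± 0.26, adjusted p = 2.1e-05). Inside Il6ra, the IL-6 receptor alpha chain, a peak had 62.7, 57.1 and 60.1 CPM with vehicle and 31.3, 39.5 and 25.6 CPM with DFMO. It fell by 0.91 ± 0.18 on the log2 scale, against an estimate of 0.46 in Th17n (adjusted p = 0.0019 for the difference).

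On the Th1 and cytotoxic list 16 of 103 peaks fell (15.5%) and 1 rose. Losses numbered 3 without vehicle 2, 4 without vehicle 3 or DFMO 3, and 9 without DFMO 1, and no gain was left without vehicle 2, vehicle 3 or DFMO 3. With loess offsets 9 fell and 2 rose. Inside Stat4, the transducer of IL-12 signals, a peak fell from 32.5 ± 10.2 to 10.7 ± 7.22 CPM (-1.63 ± 0.30, adjusted p = 0.00027). Inside Il12rb2, a chain of the IL-12 receptor, a peak fell by 2.06 ± 0.45 on the log2 scale (adjusted p = 0.0023). It had 3.63, 13.3 and 12.3 CPM with vehicle and 3.61, 1.48 and 2.46 CPM with DFMO, so vehicle 1 and DFMO 1 were alike. The promoter peak of Il12rb2 also fell (-0.88, adjusted p = 0.039) and another peak inside Il12rb2 rose (1.26, adjusted p = 0.021). Of the Th2 list 4 of 63 peaks fell (6.35%) and 2 rose (3.17%). Of the Tfh list 4 of 82 fell (4.88%) and 5 rose (6.1%). These shares lie near those of all tested peaks, of which 4.72% fell and 3.84% rose. With loess offsets the Tfh list had 3 losses and 6 gains. Without vehicle 1, 2 and 3 and DFMO 1, 2 and 3 in turn, Th2 losses numbered 6, 3, 2, 3, 4 and 1 and gains 2, 2, 0, 1, 2 and 1. In the same order Tfh losses numbered 7, 1, 2, 2, 7 and 1 and gains 5, 2, 2, 2, 4 and 3.

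**Figure D4:**
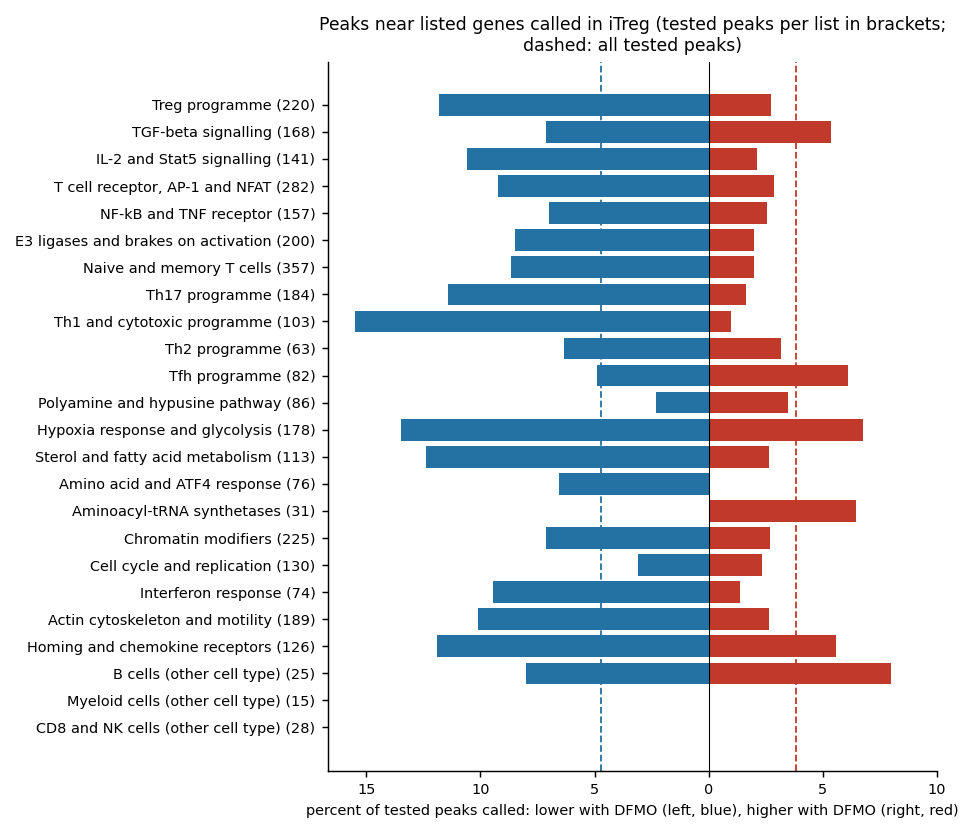
Percent of tested peaks called higher (right, red) or lower (left, blue) with DFMO in iTreg cells for 24 gene lists, with the number of tested peaks in brackets and dashed lines at 3.84% and 4.72% for all tested peaks. The share of losses is above its line for most lists, the Treg, Th17, Th1, hypoxia and fatty acid lists among them, and below it for the polyamine list. The lines are not matched to the lists for level or position of the peaks.

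Genes of naive and memory T cells had 31 losses and 7 gains among 357 peaks (8.68% and 1.96%, median -0.19). Losses numbered 14 without vehicle 2, 11 without vehicle 3, 19 without DFMO 1 and 15 without DFMO 3, and gains 4, 3 and 3 without vehicle 2, vehicle 3 and DFMO 3 and 11 without DFMO 2. Homing and chemokine receptor genes had 15 losses (11.9%) and 7 gains (5.56%) among 126, with 6 losses without vehicle 2, and 7 without vehicle 3 or DFMO 3. The 7 gains were 11, 2, 1, 4, 11 and 1 without vehicle 1, 2 and 3 and DFMO 1, 2 and 3, and loess offsets gave 11 losses and 9 gains. Ccr7, which guides naive cells to lymph nodes, had a peak that fell from 26.4, 36.9 and 53.8 CPM to 12.1, 10.9 and 12.3 CPM (-1.75 ± 0.27, adjusted p = 2.8e-05). Its change in Th17n was of like size (-1.64, adjusted p = 0.00064). In iTreg 2 other Ccr7 peaks fell (-0.92 and -1.05) and 1 rose (0.67, adjusted p = 0.011). A peak inside the gene model of Cx3cr1, the fractalkine receptor, rose from 42.5, 28.9 and 39.1 CPM to 97, 60.3 and 73.3 CPM (1.07 ± 0.20, adjusted p = 0.00034), and a peak between genes nearest to Cx3cr1 fell (-1.08, adjusted p = 0.025).

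On the actin and motility list 19 of 189 peaks fell (10.1%) and 5 rose (2.65%). There were 6 losses without vehicle 3 or DFMO 3 and 12 without DFMO 1, and 2 gains without vehicle 2, vehicle 3, DFMO 1 or DFMO 3. A peak near Actg1, a cytoplasmic actin, fell from 54.4, 82.9 and 84.4 CPM to 33.7, 25.2 and 28.0 CPM (-1.39 ± 0.18, adjusted p = 1e-06; -0.29 in Th17n, adjusted p = 0.012 for the difference). Of the NF-kB list 11 of 157 fell (7.01%) and 4 rose (2.55%). There were 21 losses without vehicle 1, 18 without DFMO 2, 6 without DFMO 1, 3 without DFMO 3 and 2 without vehicle 2 or vehicle 3. There were 2 gains without vehicle 3 or DFMO 3, and RLE normalization gave 10 losses and 6 gains. A peak near Tnfaip3, the inhibitor A20, rose from 17.5 ± 3.02 to 49.1 ± 18.3 CPM (1.49 ± 0.26, adjusted p = 0.00017), and another peak nearest to the same gene fell (-0.87, adjusted p = 0.016).

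Genes of the amino acid and ATF4 response had 5 losses (6.58%) and 0 gains among 76 peaks by edgeR and by DESeq2. Of all tested peaks 4.72% fell and 3.84% rose by edgeR. On this list 6 higher peaks had an unadjusted p below 0.05. Without DFMO 2 there were 8 losses and 3 gains. The stress-induced promoters of Atf3 and Chac1 fell, by 0.84 ± 0.16 and 0.82 ± 0.17 on the log2 scale; after thinning to the shallowest library Chac1 had an adjusted p of 0.074. A peak near Trib3, a pseudokinase induced by ATF4, fell from 6.22, 13.3 and 10.6 CPM to 0, 1.98 and 1.85 CPM (-2.84 ± 0.55, adjusted p = 0.00059). Chromatin modifiers had 16 losses (7.11%) and 6 gains (2.67%) among 225 peaks. There were 4 to 8 losses without vehicle 2, vehicle 3, DFMO 1 or DFMO 3 and 26 or 25 without vehicle 1 or DFMO 2. Gains numbered 3, 1, 3 and 0 without vehicle 2, vehicle 3, DFMO 1 and DFMO 3, and RLE normalization gave 11 losses and 10 gains. An example is the promoter of Tet3, an enzyme that oxidizes methylcytosine (61.1, 63.1 and 56.1 CPM to 34.3, 34.6 and 35.4 CPM, -0.78 ± 0.18, adjusted p = 0.0034). Cell cycle genes had 4 losses (3.08%) and 3 gains (2.31%) among 130 peaks. Without vehicle 1, 2 and 3 and DFMO 1, 2 and 3 the losses numbered 6, 2, 2, 2, 8 and 1 and the gains 2, 1, 2, 5, 4 and 2. Interferon genes had 7 losses (9.46%) and 1 gain (1.35%) among 74. In the same order their losses numbered 9, 2, 0, 3, 7 and 1 and their gains 2, 1, 1, 1, 4 and 0, and loess offsets left 5 losses and no gain.

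At some genes several peaks closed together. Bach2, a repressor that keeps T cells from effector fates, had 9 losses and 1 gain among 50 peaks; the strongest by p (chromosome 4, 32249867 to 32251476) went from 123, 120 and 146 CPM to 80.1, 78.6 and 76.4 CPM (-0.73 ± 0.12, adjusted p = 7e-05). Sla, an adaptor that lowers receptor levels, had 7 losses and 0 gains among 12 peaks, with a median change of -0.99. Cd47, the "do not eat me" ligand, had 6 losses among 21 peaks, the largest at 20.2, 31.6 and 37.0 CPM against 7.23, 2.97 and 4.93 CPM (-2.60 ± 0.35, adjusted p = 2.4e-06). Exoc2 and Tomm20 had 6 losses each, and Cd83, Arhgef3 and Ctla4 had 5 each. Peaks at 1 gene share its neighbourhood and are not independent.

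Fewer genes had several gains than several losses. At least 3 gains were found at 22 of the 1389 genes with a gain, and at least 3 losses at 83 of the 1562 genes with a loss. Losses outnumbered gains (2065 against 1677), genes with many peaks can have more calls, and the difference was not tested. Trio, a guanine nucleotide exchange factor, had 4 gains and 0 losses among 20 peaks, though the strongest by p was lost without vehicle 2 (adjusted p = 0.08), without vehicle 3 (0.14) and without DFMO 3 (0.19). Ldlrad4, an inhibitor of TGF-beta signalling, had 4 gains and 1 loss among 21 peaks; its strongest peak rose from 24.4, 16.9 and 18.7 CPM to 73.5, 35.6 and 56.7 CPM (1.49 ± 0.27, adjusted p = 0.00021). Mtss1 had 3 gains, one from 22.4 ± 2.36 to 47.7 ± 14.1 CPM (1.07 ± 0.20).

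The largest changes were at peaks that were nearly closed in one group. Inside Esr1, the estrogen receptor alpha gene, a peak (chromosome 10, 4900172 to 4900706) had 3.63, 1.55 and 2.49 CPM with vehicle and 28.9, 18.3 and 34.5 CPM with DFMO (3.52 ± 0.36, adjusted p = 7.9e-09). In Th17n it rose by less (1.59, adjusted p = 0.033 for the difference). Spsb1, an adaptor of ubiquitin ligases, had 3.63, 1.78 and 1.25 CPM and then 23.5, 17.3 and 20.9 CPM (3.37 ± 0.44, adjusted p = 2e-06), and of 3 other called peaks nearest to Spsb1 2 rose and 1 fell (-1.20). Inside Cep70, a centrosome protein, a peak rose from 2.17 ± 1.71 to 11.7 ± 4.73 CPM (2.80 ± 0.39), and the estimate in Th17n was -0.13 (adjusted p = 0.00016 for the difference). In the other direction, a peak inside Slc6a6, the taurine transporter, fell from 10.4, 12.4 and 8.94 CPM to 0.602, 0.494 and 1.23 CPM (-3.57 ± 0.53, adjusted p = 1.4e-05). A peak inside Etv6, a repressor of the ETS family, fell from 19.0 ± 9.30 to 3.46 ± 2.46 CPM (-2.72 ± 0.40; -0.46 in Th17n, adjusted p = 0.013 for the difference).

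The iTreg and Th17n effects come from different libraries of the same numbered animals. Of the 1677 gains in iTreg, 348 were also called higher in Th17n and 14 lower. Of the 2065 losses, 399 were called lower and 26 higher. The Th17n estimate had the same sign at 1376 of the gains (Th17n median 0.38) and 1631 of the losses (Th17n median -0.35). The share of same signs over all peaks is not given here. The named peaks nearest to Rora, Hif1a, Cd47, Tnfaip3, Slc6a6, Triobp and Eif5a were among those called in the same direction in both lineages. Among all tested peaks in Th17n, 8.78% were called in either direction. The difference between lineages was called at 114 of the iTreg gains and 168 of the losses, and at 574 of all 43726 peaks (1.31%). The named peaks were mostly picked for a change in iTreg, so no share of the named peaks is read against that background.

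**Figure D5:**
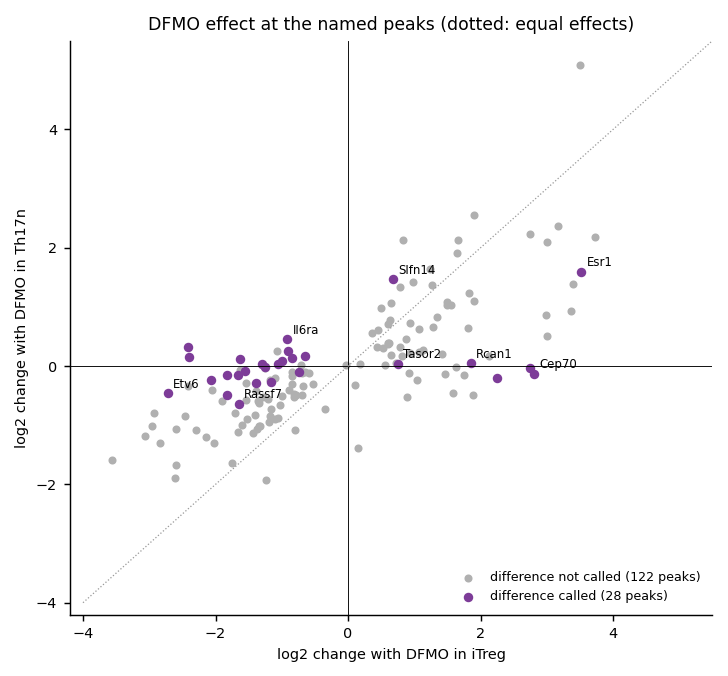
Log2 change with DFMO in iTreg (horizontal axis) and in Th17n (vertical axis) at the 150 named peaks, with the 28 peaks at which the difference was called in purple and equal effects on the dotted line. Esr1, Cep70 and Rcan1 rose more in iTreg, with Th17n estimates of 1.59, -0.13 and 0.05, and Slfn14 rose more in Th17n.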

How the data were processed

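The authors deposited raw read counts for peaks on mouse build mm10, in whole numbers. Trimmomatic, FastQC, Bowtie2 and MACS2 are named per the submitters' processing notes; versions, settings, the treatment of duplicates and of reads with several matches, and whether peaks were called on pooled samples were not given in the sources used here. Peak starts are printed as deposited. All count columns belonged to the 12 libraries (0 unused).

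Tests used edgeR 4.0.16 under R 4.3.3 (filter: filterByExpr, minimum count 10; TMM, 4 group means over 12 libraries, glmQLFit and glmQLFTest, Benjamini-Hochberg threshold 0.05), a procedure that was tested on simulated data. The labels state no test. A peak took the name of the closest protein-coding RefSeq gene (GRCm38.p6) up to 100 kb away; promoter means within 1 kb of a transcription start, listed for 17492 of 21887 genes, or of either gene end where no start is listed. Such naming is by distance alone and says nothing of which gene is controlled.

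Named peaks follow a rule: 12 gains and 12 losses with the largest change (at least 10 CPM in the higher group, groups not overlapping), 8 promoters and 8 genes with the most calls in each direction, up to 4 per list and RNA class by p, and 7 fixed genes. The members, the 24 lists and the rule were chosen with earlier results of these data known. Pairing by the animal number in the labels was checked: after removal of group means, iTreg libraries of the same animal correlated at 0.0747, 0.059 and -0.0549. Libraries within an iTreg group correlated at 0.8904 to 0.9602, with a spread above counting error. Vehicle and DFMO libraries of iTreg correlated at 0.8754 to 0.9135, so the ranges overlapped. Alternatives were iTreg libraries only, DESeq2 1.42.0, RLE and loess normalization (limma 3.58.1), no filter, thinning to the shallowest library, a replicate block and each library left out; counts per list under them were added after seeing the data. P-values of the main test rest on the spread between libraries within all 4 groups, Th17n included. That spread mixes differences between animals, cultures and library preparation, and the main model has no term for the animal.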

Additional observations from a re-analysis of the deposited data

Results flagged for a closer look

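At 28 of the named peaks the DFMO effect in iTreg differed from that in Th17n by a test of the difference itself (edgeR quasi-likelihood interaction test, Benjamini-Hochberg adjusted over all tested peaks). Values are the log2 change in iTreg minus that in Th17n, each from 3 DFMO and 3 vehicle libraries. The named peaks were mostly chosen for a change in iTreg. The effect was lower in iTreg at Fads2 by -1.67 (-1.82 in iTreg, -0.15 in Th17n, adjusted p = 0.00012), Il6ra by -1.37 (-0.91 in iTreg, 0.46 in Th17n, adjusted p = 0.0019), Cd5 by -1.33 (-1.29 in iTreg, 0.04 in Th17n, adjusted p = 0.0047) and Scd2 by -1.16 (-0.90 in iTreg, 0.25 in Th17n, adjusted p = 0.0048). It was also lower at Tspan17 by -1.10 (-1.06 in iTreg, 0.04 in Th17n, adjusted p = 0.0084), Actg1 by -1.10 (-1.39 in iTreg, -0.29 in Th17n, adjusted p = 0.012), Etv6 by -2.26 (-2.72 in iTreg, -0.46 in Th17n, adjusted p = 0.013) and Rac1 by -1.08 (-1.0 in iTreg, 0.08 in Th17n, adjusted p = 0.017). Further lower values in iTreg were found at Slc7a5 by -0.98 (-0.85 in iTreg, 0.13 in Th17n, adjusted p = 0.017), Stat4 by -1.76 (-1.63 in iTreg, 0.13 in Th17n, adjusted p = 0.018), Slc16a3 by -1.46 (-1.55 in iTreg, -0.09 in Th17n, adjusted p = 0.018) and Rassf7 by -1.02 (-1.65 in iTreg, -0.63 in Th17n, adjusted p = 0.019). The iTreg value lay below the Th17n value at Nos2 by -1.50 (-1.66 in iTreg, -0.16 in Th17n, adjusted p = 0.021), Smad3 by -0.82 (-0.65 in iTreg, 0.17 in Th17n, adjusted p = 0.022), Arhgef3 by -1.24 (-1.25 in iTreg, -0.01 in Th17n, adjusted p = 0.025) and Zbtb7b by -0.89 (-1.16 in iTreg, -0.26 in Th17n, adjusted p = 0.028). More values below those of Th17n were found at Chm by -1.84 (-2.07 in iTreg, -0.24 in Th17n, adjusted p = 0.032), Nrp1 by -1.34 (-1.83 in iTreg, -0.48 in Th17n, adjusted p = 0.032), Qrfprl by -2.72 (-2.41 in iTreg, 0.31 in Th17n, adjusted p = 0.037) and Bach2 by -0.64 (-0.73 in iTreg, -0.10 in Th17n, adjusted p = 0.04). The effect was also lower at Cbl by -2.56 (-2.40 in iTreg, 0.16 in Th17n, adjusted p = 0.043; with animal number as a replicate block 0.06).

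The effect was higher in iTreg at Cep70 by 2.93 (2.80 in iTreg, -0.13 in Th17n, adjusted p = 0.00016), 2610301B20Rik by 2.79 (2.75 in iTreg, -0.04 in Th17n, adjusted p = 0.0021), Maml2 by 2.45 (2.25 in iTreg, -0.19 in Th17n, adjusted p = 0.017) and Esr1 by 1.93 (3.52 in iTreg, 1.59 in Th17n, adjusted p = 0.033). More was gained in iTreg at Rcan1 by 1.80 (1.85 in iTreg, 0.05 in Th17n, adjusted p = 0.035) and Tasor2 by 0.71 (0.75 in iTreg, 0.04 in Th17n, adjusted p = 0.038). Both lineages had a gain, larger in Th17n, at Slfn14 by -0.79 (0.68 in iTreg, 1.47 in Th17n, adjusted p = 0.047).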

How the results depend on the processing

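The 1677 gains and 2065 losses became 1376 and 1371 with the 6 iTreg libraries alone, 1583 and 1543 with DESeq2, 1873 and 1899 with RLE, 1776 and 1820 with loess offsets, and 1603 and 1988 without the filter on low counts. Thinning all libraries to the shallowest left 629 and 731. With 1 iTreg library left out, gains ranged from 621 to 1791 and losses from 778 to 2601, and 1319 to 3230 of the 3742 called peaks were called again; the lowest came without DFMO 3 and vehicle 3. The difference in promoter share between DFMO and vehicle (1.45 percentage points) ranged from 0.786 to 2.07. With animal number as a replicate block there were 1623 gains and 2056 losses, and 3553 of the 3742 calls were kept; the labels tie the pairs to animals, and the block ended 1 call at the named peaks, that of the difference between lineages at Cbl (adjusted p = 0.06). With 1 library left out, estimates that were not called ran from -0.09 (without vehicle 1) to 0.55 (without vehicle 3) at Foxp3 and from -0.11 (without vehicle 3) to 0.10 (without vehicle 1) at the Il2ra promoter, which was also above 0 without DFMO 2 (0.06); the cause was not tested. Of the called peaks that were tested again, none changed sign under any setting except 1 after thinning. With the iTreg libraries alone 3474 of the 3742 were tested again, and after thinning 3254. Of the 10932 tested peaks with the lowest mean CPM, 2.09% rose and 1.59% fell, against 5.71% and 6.93% of the 10932 with the highest. The part of depth in this was not tested.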

Other observations

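Chromosome X stood at one end of the chromosomes. Its 860 tested peaks had 32 gains (3.72%) and 16 losses (1.86%), with a median log2 change of 0.13, while medians of the other chromosomes ran from -0.07 to 0.032. The X chromosome took 1.6%, 1.57% and 1.47% of all counts in the vehicle libraries of animals 1, 2 and 3 and 1.68%, 1.66% and 1.73% in the DFMO libraries, so the groups did not overlap. Of all tested peaks, 11.4% had every DFMO value above every vehicle value and 12.2% every one below. The X chromosome values were noticed in the same data and were not tested further.

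At 190 genes peaks moved in both directions. Of the gains, 186 started from a vehicle mean below 2 CPM, and of the losses 256 ended at a DFMO mean below 2 CPM.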
